A study of Homo sapiens with 12 samples.

Results

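The genes described here are 10 with a part in how much decitabine (DAC) reaches the DNA of a cell, namely DCK, CDA, DCTD, SLC29A1, SLC29A2, SAMHD1, RRM1, RRM2, TYMS and NT5C2. They were taken by symbol from a matrix of 197782 transcripts under 44786 symbols, in which they hold 89 transcripts. U937, a human myelomonocytic AML cell line, was cultured, by the labels, in medium with 20% FCS and 5 ng/ml GM-CSF in all groups. The study's methods give a lower serum content for its cell lines and name no GM-CSF. Of the 12 RNA-seq libraries, 3 came from untreated cells (labelled 96 h), 3 from cells given 200 nM DAC, 3 from cells given 1 µM all-trans retinoic acid (ATRA) and 3 from cells given 200 nM DAC + 1 µM ATRA (each labelled 72 h; medium was changed daily for 3 days, and DAC given anew in the groups that received it). By the study's methods, ATRA was added only with the last of the daily DAC pulses, and cells were harvested at 72 h. If the labelled times hold, treatment and time cannot be told apart in any comparison with untreated cells. Libraries 1 to 3 are untreated, 4 to 6 DAC, 7 to 9 ATRA and 10 to 12 DAC + ATRA. The series calls the libraries of a group technical triplicates, so that p-values measure only the spread between these libraries.

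DAC is a cytidine analogue that needs the cell's own nucleotide enzymes. Equilibrative nucleoside transporters carry it across the membrane, deoxycytidine kinase adds the first phosphate, and only the triphosphate is built into DNA, where it traps DNA methyltransferases. Cytidine deaminase and dCMP deaminase inactivate the nucleoside and its monophosphate, the triphosphohydrolase SAMHD1 removes the triphosphate, and ribonucleotide reductase and thymidylate synthase set the natural dNTP pools with which it competes.

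The values are read counts per annotated transcript, each divided by the size factor of its library (normalized read count). Between 8042435 and 10683593 reads were counted per library, and 3 reads equal 2.50 to 3.71 in normalized read count. Mitochondrial transcripts held 40.6% to 42.5% of the reads in untreated libraries, 37.0% to 40.4% with DAC, 38.9% to 41.1% with ATRA and 36.3% to 38.3% in the DAC + ATRA libraries. The DAC and the DAC + ATRA libraries all lay below the untreated ones. Of the 8 genes listed as markers of a myelomonocytic line, 6 (CD33, CD4, SPI1, ITGB2, LYZ and CEBPB) had values of 94.5 or more in every library, whereas PTPRC was listed at 0 and FCER1G had 4 reads in all. Among the markers of other cells, HBB was listed at 0, CD3E and KRT18 had 1 and 4 reads in all, but CD79A ran from 124 to 1385 and COL1A1 from 14.6 to 266, with the lowest values in untreated cells for both. The part of these differences in the results was not tested.

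Few reads were counted on these genes. Of the 89 transcripts, 37 had at least 1 read in any library and 7 reached a normalized read count of 10 in at least 3 libraries, the filter for testing. These 7 belong to 4 genes (SAMHD1, SLC29A1, TYMS and NT5C2). SAMHD1 was the only one of the 10 genes with a protein-coding transcript past the filter, against 39.6% of the 19141 symbols that have a protein-coding transcript. Of the 41 protein-coding transcripts of the 10 genes, 18 have no base that lies outside every other transcript on the same strand in GENCODE 44. Over the 12 libraries, SAMHD1 had 7033 reads, NT5C2 975, TYMS 577, SLC29A1 409, RRM2 240, DCK 55, CDA 25, SLC29A2 11, RRM1 10 and DCTD 9. These totals show what could be counted and do not rank the genes by expression.

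**Figure D1:**
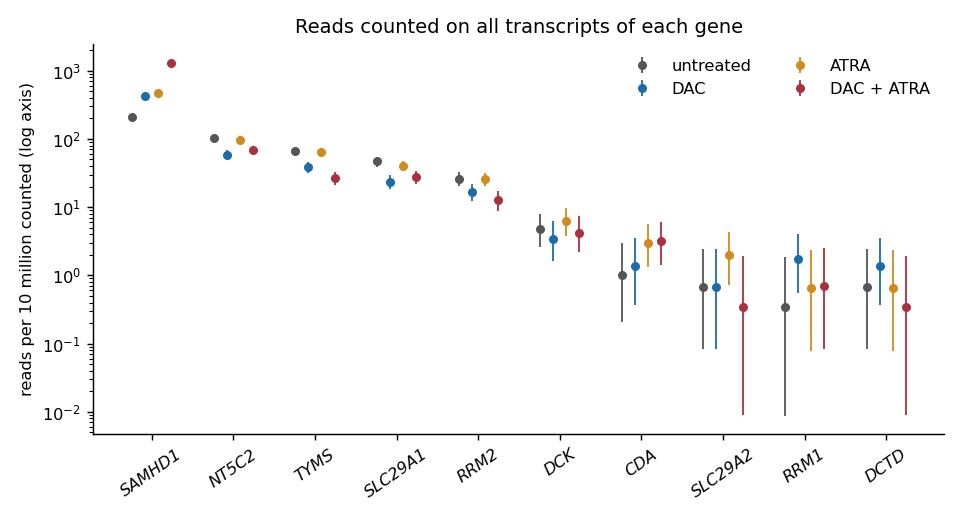
Reads counted on all transcripts of each gene per 10000000 reads counted in the 3 libraries of a group (log axis), with exact 95% Poisson intervals that cover counting error only. SAMHD1 had 209 in untreated cells and 1310 with DAC + ATRA, and the intervals of the 4 groups overlap for DCK, CDA, SLC29A2, RRM1 and DCTD.

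SAMHD1, the dNTP triphosphohydrolase that also cleaves DAC triphosphate, was higher with each agent than in untreated cells and highest with both. Nearly all of its reads (7024 of 7033) lay on ENST00000262878.4, a protein-coding transcript of 15 exons and 4334 bases on the minus strand of chromosome 20 (hg38, 36890574 to 36951843). Of its bases, 4072 are shared with no other transcript of that strand, 1511 of them coding and 2426 in UTRs of the reference transcript, so that its value covers most of the mRNA. The other SAMHD1 transcript had 9 reads.

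The normalized read count of ENST00000262878.4 was 163.6, 206.6 and 193.9 in the untreated libraries. It was 454.0, 393.6 and 406.4 with DAC. With ATRA it was 427.7, 445.1 and 440.3. All 3 DAC libraries and all 3 ATRA libraries lay above the highest untreated library, and the ranges of DAC and ATRA overlapped. With DAC + ATRA the values were 1283, 1326 and 1328, each above 2 times the highest value of any other group.

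**Figure D2:**
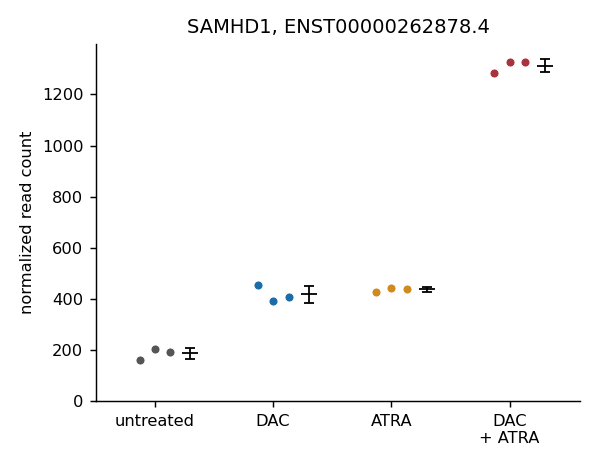
Normalized read count of SAMHD1 ENST00000262878.4 in each of the 12 libraries, by group; bars show the mean and SD of 3 libraries. The means were 188 in untreated cells, 418 with DAC, 438 with ATRA and 1313 with both.

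SAMHD1 rose by 1.15 on the log2 scale with DAC (SE 0.11, adjusted p = 1.97e-08), from a mean of 188 to 418, or 2.22 times. In this comparison, 39.3% of the 9016 protein-coding transcripts tested passed the threshold (adjusted p under 0.01). With ATRA, SAMHD1 rose by 1.22 (SE 0.11, adjusted p = 4.17e-08), or 2.33 times, where 9.14% of transcripts passed. With DAC + ATRA it rose by 2.80 (SE 0.11, adjusted p = 1.09e-14), or 6.98 times, where 46.8% passed. It was also higher with DAC + ATRA than with DAC alone (1.65, SE 0.11, adjusted p = 6.98e-10, 11.3% passed) and than with ATRA alone (1.58, SE 0.11, adjusted p = 1.84e-10, 34.8% passed). Among all transcripts tested, 96.1% had a lower log2 fold change than SAMHD1 with ATRA and 80.8% with DAC.

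The sum of the SAMHD1 log2 fold changes of both single agents lay below that of DAC + ATRA by 0.43 (SE 0.15, 95% interval 0.11 to 0.75). This interaction did not pass the threshold (adjusted p = 0.135), and over the alternatives other than left-out libraries its adjusted p ran from 0.031 to 0.415. Of the 9016 transcripts, 2.46% passed for the interaction. All 5 calls of SAMHD1 held under every alternative and with each library left out, with log2 fold changes for DAC + ATRA of 2.64 to 2.81 over the alternatives other than left-out libraries. TLDC2, which overlaps 205 bases of the last SAMHD1 exon on the opposite strand, had 17 reads in all. Its part in the SAMHD1 value was not tested.

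Per kilobase of its own bases, SAMHD1 stood at 322 ± 6.32 (SD, n = 3) under DAC + ATRA, 107 ± 2.21 under ATRA, 103 ± 7.82 under DAC and 46.2 ± 5.43 in untreated cells. In this order, the neighbours ATRA and DAC did not differ beyond their spread.

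The genes with the profile most like that of SAMHD1 over the 12 libraries, among 3825 genes with a mean of at least 100, were OAS3, SLC16A3 and C1RL, with Pearson's r of 0.995, 0.987 and 0.984. The libraries share their groups, so that these are descriptions of likeness. OAS3, an interferon-induced oligoadenylate synthetase, had means of 1452, 3173, 3071 and 8500 in untreated, DAC, ATRA and DAC + ATRA cells. SLC16A3, a lactate transporter, had means of 83.5, 124, 128 and 253 in the same order. C1RL, a serine protease related to complement C1r, had 299, 455, 465 and 679.

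Both equilibrative nucleoside transporters were read thinly. SLC29A1 (ENT1), the main route of DAC into cells, was lower with DAC in the only transcript that could be tested. This transcript, ENST00000472176.1, retains intron 5 of the 12 introns of the reference transcript, and its 300 own bases on the plus strand of chromosome 6 are exactly that intron, so that its count measures RNA in which the intron was still present.

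The normalized read count of ENST00000472176.1 was 38.6, 32.8 and 38.8 in untreated cells and 22.7, 21.4 and 17.9 with DAC. It was 30.6, 32.8 and 34.1 with ATRA, a range that overlapped the untreated one. With DAC + ATRA it was 25.3, 22.1 and 24.7, below every untreated and every ATRA library. Transcripts outside the protein-coding set were tested in a fit of all 19373 transcripts past the filter. The SLC29A1 transcript fell by 0.80 with DAC (SE 0.22, adjusted p = 0.0043). With DAC + ATRA its log2 fold change was -0.59 (SE 0.22, adjusted p = 0.027) and with ATRA -0.17 (SE 0.22, adjusted p = 0.726). The call with DAC was lost without untreated library 1 (adjusted p = 0.0178), without untreated library 3 (0.0209) and without DAC library 6 (0.0234; in edgeR 0.0187), and under DESeq2 (0.0201) or with no filter (0.0304).

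Summed over its 10 transcripts, SLC29A1 had 44.1, 38.2 and 44.3 in untreated cells, 23.8, 24.4 and 21.9 with DAC, 33.8, 39.1 and 40.8 with ATRA and 28.9, 25.3 and 27.2 with DAC + ATRA. The sum fell by 0.83 with DAC (SE 0.20, adjusted p = 0.0013), a comparison in which 40.6% of 13528 symbols passed. Its log2 fold change with DAC + ATRA, -0.62, missed the threshold by little (adjusted p = 0.01004). Since 356 of the 409 reads lie in the intron, the sum is not a measure of the mature mRNA. The protein-coding transcripts of SLC29A1 had 53 reads in all.

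SLC29A2 (ENT2), the second equilibrative transporter, had 11 reads, all on ENST00000546034.1, whose own bases number 40. They were 2 in untreated cells, 2 with DAC, 6 with ATRA and 1 with both. The exact 95% Poisson intervals of these totals, which cover counting error only, run from 0.242 to 7.22 reads in untreated cells and from 2.20 to 13.1 with ATRA. A difference was not detectable from these few reads. No other SLC29A2 transcript has own bases or reads, so that these totals need not measure the whole mRNA of the gene.

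DCK, the kinase whose loss makes cells resistant to DAC, had 55 reads on 5 transcripts. The group totals were 14 in untreated cells, 10 with DAC, 19 with ATRA and 12 with both. Their exact 95% intervals overlap throughout, from 4.80 to 18.4 reads with DAC to 11.4 to 29.7 with ATRA. Per library, the normalized sum ran from 1.99 to 7.39. The transcript with the full coding sequence, ENST00000286648.9, has no bases of its own and held 6 of the 55 reads.

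CDA, the deaminase that inactivates the nucleoside, had 25 reads on ENST00000375071.3, all of whose 58 own bases are coding. The totals were 3 in untreated cells, 4 with DAC, 9 with ATRA and 9 with both. In reads, libraries 1 to 3 had 2, 0 and 1, libraries 4 to 6 had 1, 1 and 2, libraries 7 to 9 had 1, 5 and 3, and libraries 10 to 12 had 2, 5 and 2. The ATRA range overlapped the untreated range, and the exact intervals, 0.619 to 8.77 reads in untreated cells and 4.12 to 17.1 with ATRA, overlapped too. Without the filter, DAC + ATRA gave a log2 fold change of 1.16 (SE 0.58, adjusted p = 0.147), which did not pass.

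DCTD, the deaminase that acts on the monophosphate and makes dUMP for thymidylate synthase, had 9 reads on 3 of its 17 transcripts. The group totals were 2 in untreated cells, 4 with DAC, 2 with ATRA and 1 with both, so that no direction can be read. Ratios of DCK to CDA per library were not formed, because CDA had no read in untreated library 2 and at most 5 in any library.

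The ribonucleotide reductase subunits fared alike. RRM1, the large catalytic subunit, had 10 reads, none on a protein-coding transcript, with group totals of 1 in untreated cells, 5 with DAC, 2 with ATRA and 2 with both. RRM2, the small subunit whose level follows the cell cycle, had 240 reads on 8 transcripts, none of which passed the filter alone.

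The RRM2 sum was 24.8, 20.0 and 25.9 in untreated cells and 13.0, 8.77 and 26.9 with DAC, so that DAC library 6 lay above all untreated libraries and libraries 4 and 5 below. It was 27.5, 21.8 and 24.1 with ATRA and 11.8, 16.8 and 8.65 with DAC + ATRA. All 3 DAC + ATRA libraries lay below every untreated library, but the log2 fold change of -0.91 (SE 0.33, adjusted p = 0.0216) did not pass the threshold. With DAC it was -0.65 (SE 0.33, adjusted p = 0.106), and with ATRA 0.05 (SE 0.33, 95% interval -0.63 to 0.74).

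TYMS, the synthase that turns dUMP into dTMP, was read mainly in introns, and these reads were fewer with DAC + ATRA. Of its 577 reads, 337 lay on ENST00000579128.1 and 185 on ENST00000584122.1, and 18 on the protein-coding ENST00000323274.14. The 291 own bases of ENST00000579128.1 on the plus strand of chromosome 18 are the start of intron 4 of 6. The 485 own bases of ENST00000584122.1 (hg38, chr18:658264-658748) lie in intron 1.

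ENST00000579128.1 was at 33.1, 35.5 and 35.1 in untreated cells and at 18.4, 20.5 and 23.9 with DAC. With ATRA it was at 23.2, 42.8 and 40.8, with library 7 below and the others above the untreated range. With DAC + ATRA it was at 13.6, 17.9 and 14.8, below all libraries of the 3 other groups. It fell by 1.12 with DAC + ATRA against untreated cells (SE 0.25, adjusted p = 0.00062) and by 1.12 against ATRA (SE 0.25, adjusted p = 0.00093). With DAC alone the log2 fold change was -0.71 (SE 0.25, adjusted p = 0.0258), without overlap of the groups but short of the threshold. The values with DAC + ATRA and with DAC did not differ past the threshold (-0.42, SE 0.25, adjusted p = 0.329).

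ENST00000584122.1 was at 12.9, 21.8 and 20.3 in untreated cells and at 11.8, 2.11 and 9.89 with DAC + ATRA. It fell by 1.32 (SE 0.42, adjusted p = 0.0097), a call that stood near the threshold and was lost in 8 of the 12 fits with 1 library left out. It was also lost in edgeR (0.0144, and 0.0151 without DAC library 6), in DESeq2 (0.0331), with a pseudocount of 0.1 (0.0148) and with only the groups compared (0.0153). Without DAC + ATRA library 11, which holds the 2.11, the log2 fold change was -0.68 (adjusted p = 0.12). The 7 other losses were without untreated libraries 2 (0.0453) and 3 (0.0377), DAC libraries 4 (0.0133), 5 (0.0107) and 6 (0.0111) and ATRA libraries 7 (0.0101) and 8 (0.0119). With DAC it was at 16.2, 11.7 and 16.9 and with ATRA at 11.6, 16.4 and 24.1, both overlapping the untreated range.

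TYMSOS, an RNA of the opposite strand, overlaps 87 of the 485 own bases of ENST00000584122.1. Its summed value ran from 109 to 150 in untreated cells, 39.8 to 91.9 with DAC, 120 to 153 with ATRA and 36.8 to 63.3 with DAC + ATRA, and it fell by 1.53 with DAC + ATRA (SE 0.24, adjusted p = 1.93e-05). The libraries were strand-specific, but the strand setting of the counting is not given in the sources used here, and its part in the TYMS value was not tested. It does not overlap the stretch in intron 4.

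The sum over the 6 TYMS transcripts was 49.6, 64.6 and 63.7 in untreated cells, 35.7, 34.1 and 44.8 with DAC, 35.9, 64.6 and 74.1 with ATRA and 28.0, 24.2 and 27.2 with DAC + ATRA. The DAC + ATRA sum fell by 1.13 (SE 0.23, adjusted p = 0.00024), where 48.5% of symbols passed. Against ATRA it fell by 1.05 (SE 0.23, adjusted p = 0.00068), where 37.1% passed.

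NT5C2, the cytosolic nucleotidase that removes the phosphate from nucleoside monophosphates, had no read on a protein-coding transcript. Its 3 tested transcripts rest on intron stretches of the minus strand of chromosome 10 and moved in opposite directions. The 166 own bases of ENST00000467380.1 lie in the long intron 3 of 18 and touch neither splice site. The 117 own bases of ENST00000458345.5 (hg38, chr10:103097972-103098088) and the 539 of ENST00000470228.5 (chr10:103098392-103098930) both lie in intron 10, the latter from its donor site on. The shorter stretch of intron 10 is printed to show what was counted.

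NT5C2 intron 10 stretch: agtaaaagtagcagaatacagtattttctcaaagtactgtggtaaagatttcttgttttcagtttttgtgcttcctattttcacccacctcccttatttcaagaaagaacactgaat

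ENST00000458345.5 was at 31.2, 30.0 and 41.6 in untreated cells and at 14.1, 3.90 and 9.96 with DAC. With ATRA it was at 13.7, 27.3 and 51.6, a spread wider than that of any other group. With DAC + ATRA it was at 15.4, 13.7 and 12.4. It fell by 1.91 with DAC (SE 0.40, adjusted p = 0.00041). With DAC + ATRA its log2 fold change was -1.24 (SE 0.40, adjusted p = 0.0113), and it passed the threshold under 7 alternatives, edgeR (0.0033) and DESeq2 (0.0070) among them, and without DAC library 4 (0.0077) or 5 (0.0033) or ATRA library 7 (0.0040) or 9 (0.0042). Without ATRA library 7 the difference between DAC + ATRA and ATRA changed from -0.92 (adjusted p = 0.0678) to -1.39 (0.0061), and without ATRA library 9 to -0.47 (0.377). In edgeR it was -1.22 (0.0095).

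ENST00000470228.5 was at 18.4, 22.8 and 27.7 in untreated cells, at 6.49, 5.85 and 2.99 with DAC, at 14.8, 7.28 and 12.5 with ATRA and at 4.52, 3.16 and 2.47 with DAC + ATRA. It fell by 2.01 with DAC (SE 0.39, adjusted p = 0.00016) and by 2.46 with DAC + ATRA (SE 0.39, adjusted p = 8.54e-06). With ATRA the log2 fold change was -0.97 (SE 0.39, adjusted p = 0.124). It was lower with DAC + ATRA than with ATRA (-1.49, SE 0.39, adjusted p = 0.0033), a call lost without ATRA library 7 (0.0227) or 9 (0.0145) and without DAC + ATRA library 11 (0.0114) or 12 (0.0178), and in DESeq2 (0.0204).

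ENST00000467380.1, in intron 3, was at 26.7, 30.0 and 21.2 in untreated cells, at 46.5, 25.3 and 45.8 with DAC, at 41.2, 36.4 and 34.1 with ATRA and at 51.5, 34.7 and 56.8 with DAC + ATRA. It rose by 0.84 with DAC + ATRA (SE 0.25, adjusted p = 0.0065). The call was lost without untreated library 1 (0.0142) or 3 (0.0392), without DAC + ATRA library 10 (0.0311) or 12 (0.0427), and with DESeq2 (0.0109), library size scaling (0.0270) or size factors from protein-coding transcripts (0.0221). With DAC its log2 fold change was 0.54 (SE 0.25, adjusted p = 0.0796) and with ATRA 0.51 (SE 0.25, adjusted p = 0.222).

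The intron 3 value divided by the sum of both intron 10 values, a ratio chosen after the values were seen, was 0.537, 0.569 and 0.307 in untreated cells. It was 2.26, 2.60 and 3.54 with DAC and 2.59, 2.06 and 3.83 with DAC + ATRA, and 1.44, 1.05 and 0.532 with ATRA. The ATRA range overlapped the untreated range, and the others lay above it. The sum over the 14 NT5C2 transcripts (83.6, 99.2 and 97.0 in untreated cells, 73.5, 38.0 and 63.7 with DAC) fell by 0.71 with DAC (SE 0.21, adjusted p = 0.0075), and with DAC + ATRA its log2 fold change was -0.43 (SE 0.21, adjusted p = 0.0859).

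Among the same 3825 genes, the one most like each tested intron transcript over the 12 libraries was PGBD4 for SLC29A1 ENST00000472176.1 (r = 0.956), MATR3 for NT5C2 ENST00000470228.5 (0.964), CEP152 for ENST00000458345.5 (0.927), MYLIP for ENST00000467380.1 (0.818), DIDO1 for TYMS ENST00000579128.1 (0.909) and INPP4A for ENST00000584122.1 (0.765). MRPL42 (0.953) and MMS22L (0.953), SCAI (0.963) and MEIS1 (0.960), SPRYD4 (0.924) and LAT2 (0.903), KIAA0319L (0.816) and TINCR (0.811), SLC25A29 (0.907) and SLC25A28 (0.907), and RBM12B (0.757) and KIAA0907 (0.756) followed in the same order. The highest r of the leading protein-coding transcripts of DCK, CDA, DCTD, SLC29A1, SLC29A2 and TYMS, and of RRM2 ENST00000474701.1, which has no match in GENCODE 44, lay between 0.602 and 0.879, in counts too sparse to be read as likeness. The points share their groups and their libraries.

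**Figure D3:**
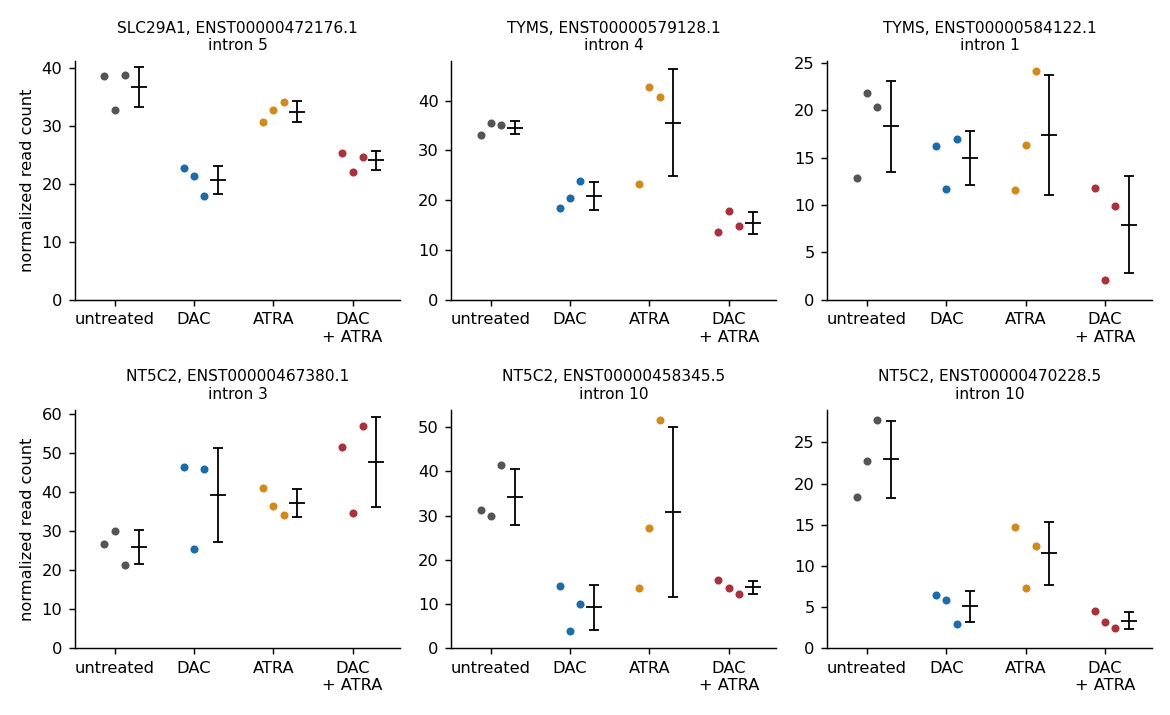
Normalized read count of the 6 tested transcripts whose own bases lie in introns, in each of the 12 libraries by group; bars show the mean and SD of 3 libraries, and the axes differ between panels. The SLC29A1 and TYMS stretches and both NT5C2 intron 10 stretches were lower with DAC + ATRA in all 3 libraries than in any untreated library, and the NT5C2 intron 3 stretch was higher. In limma, 41.6% of all transcripts passed the threshold in this comparison. SLC29A1 (adjusted p = 0.027) and NT5C2 ENST00000458345.5 (0.0113) did not.

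Counted together in the fit of all transcripts, 4 of the 7 tested transcripts changed with DAC (SAMHD1 up, SLC29A1 and both NT5C2 intron 10 stretches down), where 33.5% of all transcripts passed. With ATRA 1 of 7 (SAMHD1) changed, where 6.97% passed. With DAC + ATRA 5 of 7 changed (SAMHD1 and NT5C2 intron 3 up, both TYMS stretches and 1 NT5C2 intron 10 stretch down), where 41.6% passed. DAC + ATRA differed from DAC in 1 of 7 (8.77% passed) and from ATRA in 3 of 7 (29.4% passed). For the interaction, limma called 0 of 7 (1.51% passed), with 1 (SAMHD1) at an unadjusted p under 0.05. EdgeR also called 0 of 7, with 1 at an unadjusted p under 0.05. DESeq2 gave an adjusted p for 2 of the 7 and called 0 of these, with 1 of the 7 at an unadjusted p under 0.05. The filter on low values fixed these 7, which are too few for a share to be set apart from the background.

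**Figure D4:**
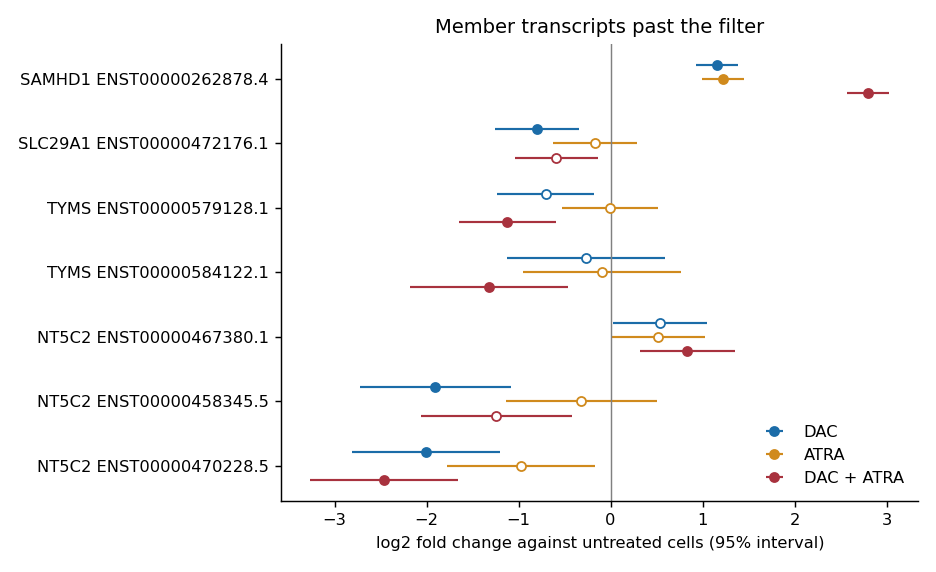
Log2 fold change of the 7 tested transcripts against untreated cells with 95% intervals; filled points passed an adjusted p under 0.01. SAMHD1 is at 1.15 with DAC, 1.22 with ATRA and 2.80 with both, and the ATRA intervals of the SLC29A1 and TYMS stretches include 0.

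Around these 10 genes, 6 lists of 80 genes of nucleotide uptake, salvage, synthesis and breakdown were examined, of which 39 had a protein-coding transcript past the filter. Each was tested by its leading transcript, and counts on it need not measure the whole mRNA of the gene. With DAC, 2 rose and 12 fell, where 30.6% of all protein-coding transcripts rose and 8.7% fell. With ATRA, 3 rose and 2 fell, where 6.47% rose and 2.67% fell. With DAC + ATRA, 5 rose and 17 fell, where 32.6% rose and 14.2% fell. The median log2 fold change of the 39 was -0.29 with DAC, -0.08 with ATRA and -0.44 with both, against 0.22, 0.00 and 0.20 for all 9016. With size factors from protein-coding transcripts, the median of all shifted to 0.06 with DAC and DAC + ATRA, and the 39 then counted 2 up and 16 down with DAC and 4 up and 20 down with DAC + ATRA. The shares of all protein-coding transcripts that rose and fell move with these size factors too. The shares above are thus no background for these counts. Of all calls with DAC, 77.9% were higher, against 62.7% with these size factors and 58.8% with edgeR; with DAC + ATRA it was 69.7%, against 59.8% and 58.9%.

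All 4 tested enzymes of de novo pyrimidine synthesis, the route to UMP and CTP, fell with DAC + ATRA, where 14.2% of all protein-coding transcripts fell, and 3 of them with DAC, where 8.7% fell. Each was tested by 1 annotated transcript, with 51 own bases for CAD (ENST00000456311.1), 161 for DHODH and 4516 for UMPS, whereas that of CTPS1 was not matched to GENCODE 44. CAD, the enzyme of the opening steps, had values of 32.2, 29.1 and 24.0 in untreated cells, 5.40, 2.92 and 4.98 with DAC, 15.8, 14.6 and 25.8 with ATRA and 4.52, 1.05 and 4.94 with DAC + ATRA. It fell by 2.85 with DAC + ATRA (adjusted p = 3.98e-06). CTPS1, which makes CTP, fell least, by 0.48 (adjusted p = 0.0029), a call lost without untreated library 1 (0.0235) and without DAC + ATRA libraries 10 (0.0200) or 12 (0.0114).

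In purine synthesis and salvage, 1 of 11 tested genes rose and 7 fell with DAC + ATRA, where 32.6% of all protein-coding transcripts rose and 14.2% fell. AK1, an adenylate kinase, rose by 1.99 (adjusted p = 1.58e-05), from 7.35 to 14.6 in untreated cells to 40.7 to 45.7. IMPDH2, the enzyme of the guanine nucleotide branch, was tested by ENST00000429182.5 (72 own bases), which fell by 1.51 (adjusted p = 2.14e-05), from 37.3 to 46.9 to 11.6 to 19.9. In dNTP synthesis and dTMP supply, 1 of 7 rose and 3 fell with DAC + ATRA, against the same 32.6% and 14.2%. GLRX, a glutaredoxin that can reduce ribonucleotide reductase, rose by 1.36 with DAC + ATRA (adjusted p = 0.0018; 0.0145 under DESeq2 and 0.0104 without DAC + ATRA library 12) and by 1.84 with ATRA (adjusted p = 0.00049). MTHFD1, a folate enzyme, fell by 1.17 with DAC + ATRA (adjusted p = 1.22e-05).

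In pyrimidine salvage and phosphorylation, 1 of 6 rose and 2 fell with DAC + ATRA, so that 3 of 6 changed, where 46.8% of all did. TK2, the mitochondrial thymidine and deoxycytidine kinase, had a log2 fold change of 0.92 (adjusted p = 0.0084), a call lost under 6 alternatives, DESeq2 (0.0493) among them. It was also lost without untreated library 1 (0.0116) or 2 (0.0580), DAC library 4 (0.0107) or 5 (0.010002), ATRA library 7 (0.0104) and DAC + ATRA library 10 (0.0135), 11 (0.0565) or 12 (0.0119). DTYMK, which phosphorylates dTMP, fell by 1.31 (adjusted p = 0.00064). In uptake and efflux, 1 of 5 rose and 1 fell with DAC + ATRA, again against 46.8% of all changed. SLC29A3, the intracellular equilibrative transporter, rose by 0.71 (adjusted p = 4.24e-05), from 444 to 509 in untreated cells to 730 to 782. SLC29A4 had the lowest value of that list, -1.16 (adjusted p = 0.0316), at 14.8 or less in untreated cells, and passed with only the groups compared (0.0087).

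Of 6 tested nucleotidases, pyrophosphatases and catabolic enzymes, 1 passed the threshold with DAC + ATRA, and it rose, where 32.6% of all protein-coding transcripts rose and 14.2% fell. The highest value, 0.94 for the pyrimidine catabolism enzyme UPB1 (adjusted p = 0.0156), and the lowest, -0.84 for the pool sanitizing enzyme NUDT1 (adjusted p = 0.0114), did not pass. UPB1 passed without ATRA library 7 (0.0099) or 9 (0.0097).

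The 5 pathway genes that changed with ATRA were chosen for naming after their values were seen, where they are not named above. UPB1 was at 9.19, 10.9 and 7.39 in untreated cells and at 28.5, 44.6 and 74.1 with ATRA, and rose by 2.21 (adjusted p = 2.86e-05). GLRX rose as given above. SLC29A3 rose by 0.66 (adjusted p = 0.00053), from 509, 447 and 444 to 875, 763 and 597, and with only the groups compared the adjusted p was 0.0101. ABCC4, an efflux pump for nucleotide analogues, fell by 0.59 (adjusted p = 0.0016; 0.0124 without untreated library 1), from 562, 505 and 523 to 384, 341 and 328. SLC29A4 fell by 1.92 (adjusted p = 0.0048), from 9.19, 10.9 and 14.8 to 2.11, 0.910 and 4.99, values of few reads, and the call was lost in edgeR (0.0128), DESeq2 (0.0296), with a pseudocount of 0.1 (0.0145), with only the groups compared (0.0186) and without untreated library 1 (0.01004), ATRA library 7 (0.0180) or 8 (0.0349). The ATRA and untreated groups of these 5 genes did not overlap. The genes were picked for passing this test, so that the separation adds no support. AK1 was among the 2 genes that rose with DAC, by 2.26 (adjusted p = 4.00e-06).

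Genes of S phase and proliferation were listed because RRM2 and TYMS follow the cell cycle. Of 14 tested, 6 fell with DAC, where 8.7% of all protein-coding transcripts fell. With DAC + ATRA, 1 rose and 8 fell, where 32.6% rose and 14.2% fell. With ATRA, limma called 0, with 1 at an unadjusted p under 0.05, and edgeR and DESeq2 also called 0, with 4 and 3. ENST00000421471.1 (151 own bases) of MCM3, a subunit of the replicative helicase, fell most with DAC + ATRA among the 14 transcripts, by 1.77 (adjusted p = 1.00e-04). The part of cell cycle position in the TYMS values was not tested, and in bulk RNA fewer cells in S phase and less RNA per cell cannot be told apart.

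**Figure D5:**
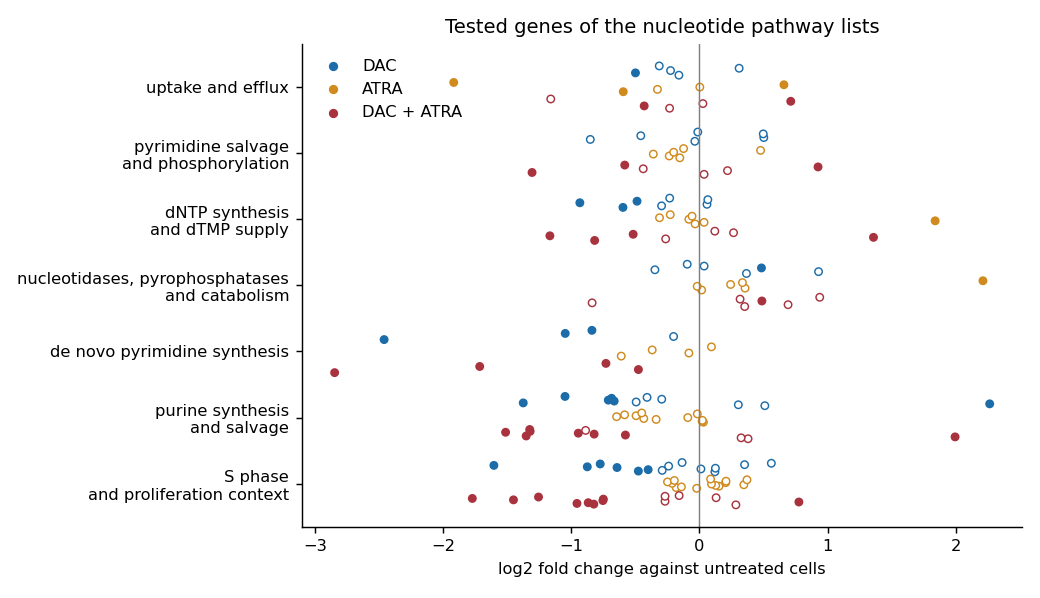
Log2 fold change against untreated cells of each tested gene of the 6 nucleotide pathway lists and of the S phase list; filled points passed an adjusted p under 0.01. The 4 tested genes of de novo pyrimidine synthesis lie between -0.48 and -2.85 with DAC + ATRA, and with ATRA 3 of the 39 pathway genes rose and 2 fell.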

How the data were processed

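RNA-seq of U937 cells was analysed in 12 libraries. According to the submitters' notes and the study's methods, FastQC, STAR, hg38, HTSeq and DESeq2 were used. Tool versions, counting mode, strand setting and annotation release are not given in the sources used here. The deposited values are a signal per transcript, made by the authors from a read count and 1 size factor per library. Whole reads were recovered from them (100% of values within 0.01 of a read), 8042435 to 10683593 per library. Columns name the group only. Of 197782 transcripts, 174768 matched GENCODE 44 (hg38), from which biotype, position and own bases (shared with no other transcript of the strand) were taken. RRM2 ENST00000474701.1 was unmatched.

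A value of 10 or more in 3 or more libraries was required, and limma 3.58.1 (R 4.3.3; trend, robust; 1 fit of all 4 groups) was run on log2(value + 1), so that fold changes of low transcripts are understated. P-values were adjusted by Benjamini-Hochberg over all features tested, with a threshold of 0.01. Fits covered 9016 protein-coding transcripts, sums of 13528 symbols and, chosen after the data were seen, all 19373 transcripts, for member transcripts outside the protein-coding set. Alternatives were edgeR 4.0.16 (quasi-likelihood) and DESeq2 1.42.0 on recovered reads, edgeR also without DAC library 6, whose reads could not be checked by the automatic test of whole multiples (added after the data were seen), library size scaling, size factors from protein-coding transcripts, a pseudocount of 0.1, no filter, only the groups compared, a threshold of 0.05 and each library left out. Other steps used Python 3.11.15. The tests were checked on simulated data with few changed transcripts, up and down alike, in the DAC group only. Such a check does not cover the many, mostly upward changes with DAC and DAC + ATRA seen here. Named were the 10 genes, from each list the tested genes with the highest and lowest log2 fold change with DAC + ATRA and those past the threshold for the interaction, and the 3 most similar genes. ABCC4 was named after its values were seen. Some genes and sequences are not reported here. Members and lists were chosen with earlier results of these data known. Ratios of RRM2 to RRM1 were not formed, since RRM1 had 10 reads. Poisson intervals cover counting error only.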

Additional observations from a re-analysis of the deposited data

Results flagged for a closer look

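E2F2, a transcription factor of the G1 to S transition from the S phase list, was the only tested gene of the pathway and S phase lists whose DAC × ATRA interaction passed the threshold in limma, at 0.64 on the log2 scale (adjusted p = 0.0055, with 2.46% of the protein-coding transcripts past it). The change with ATRA thus differed between cells with and without DAC. Its normalized read count was 4111, 4713 and 4487 in untreated cells, 4276, 4543 and 4581 with DAC and 4704, 5343 and 4500 with ATRA, ranges that overlap. With DAC + ATRA it was 6941, 8181 and 7676. The call was lost in 8 of the 12 fits with 1 library left out, namely without untreated library 2 (adjusted p = 0.0249) or 3 (0.0201), DAC library 4 (0.0186), 5 (0.0115) or 6 (0.0119), ATRA library 7 (0.0122) and DAC + ATRA library 11 (0.0253) or 12 (0.0260). Groups of 3 libraries are too few for a search for libraries far from the rest.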

How the results depend on the processing

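No paired analysis was possible because the columns carry running numbers and not the replicate numbers of the labels. The 5 calls of SAMHD1 kept their direction and their side of the threshold under all alternatives run and with each library left out. Few reads limit the other genes. The causes of the changes below were not tested, except that fits of other feature sets test other numbers of features.

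With all transcripts in the fit, 6485 (DAC), 1351 (ATRA), 8065 (DAC + ATRA), 1699 (DAC + ATRA against DAC) and 5688 (against ATRA) changed, and summed by symbol 5493, 1300, 6559, 1659 and 5015, against 3547, 824, 4215, 1022 and 3136 protein-coding transcripts. At an adjusted p under 0.05, 1317 changed with ATRA, 1618 between DAC + ATRA and DAC and 456 for the interaction, for which 222 passed 0.01 in limma and 341 in DESeq2. With 1 library left out, the interaction ran from 116 (without DAC + ATRA library 10) to 472 (without ATRA library 9).

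Against 1 protein-coding member transcript, 3 of the 5 member genes whose sum passed the filter changed with DAC, where 40.6% of symbols passed. With DAC + ATRA, 2 of 5 changed against untreated cells (48.5% of symbols passed) and 2 of 5 against ATRA (37.1%). With 1 library left out, 3 (without untreated library 3) to 6 (without ATRA library 9) of the 7 member transcripts changed with DAC + ATRA. With all libraries, 41.6% of all transcripts passed in this comparison. With ATRA, 5 of the 39 tested pathway genes changed, where 9.14% of all protein-coding transcripts passed. The count was 8 under library size scaling and 3 with only the groups compared. It ran from 3 (without untreated library 1) to 6 (without ATRA library 7) with 1 library left out, where 619 to 1022 of all protein-coding transcripts changed. The background moves with the setting, so that these counts alone say nothing about the pathway genes as a set. NUDT1 with DAC + ATRA passed under 5 alternatives. SLC29A1 ENST00000472176.1 passed with DAC + ATRA under library size scaling (adjusted p = 0.0090) and protein-coding size factors (0.0099).

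Directions turned where stretches of 1 gene were summed. NT5C2 ENST00000467380.1 gave -0.71 (DAC), -0.040 (ATRA), -0.43 (DAC + ATRA), -0.39 (DAC + ATRA against ATRA) and 0.32 (interaction) as the sum of NT5C2, and ENST00000470228.5 gave 0.28 against DAC. TYMS ENST00000579128.1 with ATRA, at -0.006 in limma, was 0.057 in edgeR, 0.065 in edgeR without DAC library 6 and 0.049 in DESeq2, and -0.16 to 0.27 with 1 library left out. With ATRA and 1 library left out, NT5C2 ENST00000458345.5 was lowest at -0.77 (ATRA library 9 left out), highest at 0.14 (ATRA library 7 left out) and TYMS ENST00000584122.1 ran from -0.35 to 0.15. Per kilobase of whole length, the untreated means were 60.8, 57.4 and 25.8 for NT5C2 ENST00000467380.1, ENST00000458345.5 and ENST00000470228.5, 25.6 for SLC29A1 ENST00000472176.1 and 37.4 for TYMS ENST00000579128.1, against 156, 293, 42.6, 122 and 119 per kilobase of own bases.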
